A study of Mus musculus with 12 samples.

Results

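The MHC class II presentation genes are 9 genes of antigen presentation: H2-Aa, H2-Ab1, H2-Eb1, H2-DMa, H2-DMb1, H2-Oa, H2-Ob, Cd74 and Ciita. They were taken by symbol from a table of 55413 mouse genes, in which all 9 were found, and all 9 passed the filter on low counts that left 15705 genes to test. They were measured by bulk RNA sequencing of total RNA in 12 libraries of regulatory T (Treg) cells: 3 of tumor pTreg cells, 5 of tumor tTreg cells and 4 of lymph node (LN) Treg cells. In common usage tTreg cells arise in the thymus and pTreg cells arise from conventional CD4+ T cells in the periphery. For the tumor groups, TCRbd-/- hosts, which make no T cells of their own but keep their B and myeloid cells, received a mixture of 3 sorted populations. The first was tTreg cells taken from spleen and LN of CD45.1 Foxp3YFP-cre mice. The others, CD8+ T cells and conventional CD4+ T cells without Foxp3 (Foxp3-), came from CD45.2 Foxp3YFP-cre mice. Per tTreg cell, 10 conventional CD4+ cells and 8 CD8+ cells were given. Tumors were started 3 days after the transfer with the hepatoma line Hepa1-6, which is of mouse origin, and Treg cells were sorted from CD4+ tumor-infiltrating lymphocytes 18 days after inoculation. The LN Treg cells were total Treg cells of mice without tumors. The genotype label of all 3 groups reads Foxp3YFP-cre and TCRbd-/- mice, and in Foxp3YFP-cre animals the promoter of Foxp3, the Treg lineage factor, drives YFP and Cre. The labels do not give strain or age, nor do they say which libraries came from separate mice, so the p-values measure the spread between libraries, which may be technical.

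MHC class II molecules are pairs of an alpha and a beta chain that show peptides from the endosome to the receptor of CD4+ T cells. The invariant chain, encoded by Cd74, fills the groove of a new pair and takes it to the endosome, where proteases trim it to a short fragment. H2-DM (H2-DMa with H2-DMb1 or H2-DMb2) exchanges this fragment for other peptides, and H2-O (H2-Oa with H2-Ob) inhibits H2-DM and is known mainly from B cells. Ciita is a coactivator of class II genes that acts at promoters held by the RFX complex, CREB and NF-Y through the X and Y boxes. Macrophages, dendritic cells and B cells are the usual sources, whereas mouse T cells make little class II of their own.

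Among the members, 7 lie together on chromosome 17 (GENCODE vM21 positions on GRCm38). H2-Oa (chr17:34092340-34095234) is followed on the same strand by H2-DMa (chr17:34119541-34139101) and H2-DMb1 (chr17:34153072-34160230). H2-Ob (chr17:34238903-34254414) ends 3.3 kb before H2-Ab1 (chr17:34257689-34269419), and H2-Aa (chr17:34282744-34287823, minus strand) and H2-Eb1 (chr17:34305867-34316674) complete the series. Ciita is on chromosome 16 (chr16:10480059-10528418). The promoters of H2-Eb1 and H2-Aa, which were over 100 times higher in tumor libraries, are printed with those of H2-Ob and H2-Oa, the pair of members that were lower there. Each is a RefSeq window of 300 bases on GRCm38.p6, 250 before the start and 50 after it, read 5′ to 3′ on the strand of the gene. Capitals mark the Y box letters GATTGG and, upstream of them, the X1 letters GCAAC, with ACNGATG overlapping them in H2-Eb1. The windows are chr17:34305617-34305916 (plus strand), chr17:34287774-34288073 (minus strand), chr17:34238655-34238954 (plus strand) and chr17:34092129-34092428 (plus strand).
H2-Eb1: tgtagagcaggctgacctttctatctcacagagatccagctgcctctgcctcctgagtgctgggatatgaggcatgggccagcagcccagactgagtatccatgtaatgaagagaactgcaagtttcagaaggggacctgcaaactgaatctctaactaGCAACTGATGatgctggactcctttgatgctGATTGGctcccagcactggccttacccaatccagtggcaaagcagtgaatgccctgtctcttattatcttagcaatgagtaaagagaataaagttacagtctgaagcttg
H2-Aa: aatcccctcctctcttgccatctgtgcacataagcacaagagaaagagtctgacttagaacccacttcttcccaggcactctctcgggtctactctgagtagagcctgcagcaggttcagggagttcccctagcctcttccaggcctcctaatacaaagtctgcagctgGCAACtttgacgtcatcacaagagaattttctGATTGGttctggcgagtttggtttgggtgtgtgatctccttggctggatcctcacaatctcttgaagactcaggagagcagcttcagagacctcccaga
H2-Ob: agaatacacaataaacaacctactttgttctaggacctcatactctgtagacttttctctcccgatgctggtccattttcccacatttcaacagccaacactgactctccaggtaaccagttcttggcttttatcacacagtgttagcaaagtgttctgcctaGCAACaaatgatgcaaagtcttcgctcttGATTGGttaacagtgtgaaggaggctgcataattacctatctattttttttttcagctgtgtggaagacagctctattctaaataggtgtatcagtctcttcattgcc
H2-Oa: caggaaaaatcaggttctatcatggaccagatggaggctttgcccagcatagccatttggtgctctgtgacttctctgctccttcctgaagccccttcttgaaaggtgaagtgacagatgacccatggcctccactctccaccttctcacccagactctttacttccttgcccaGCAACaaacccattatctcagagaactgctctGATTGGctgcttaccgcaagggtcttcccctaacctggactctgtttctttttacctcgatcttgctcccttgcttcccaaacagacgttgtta

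Promoters of this kind were found for 6 of the 9 members: H2-Oa, H2-DMa, H2-DMb1, H2-Ob, H2-Aa and H2-Eb1. H2-DMa has 2 such windows, so members and background are both counted by window. GATTGG, searched on both strands, stood in 6 of these 7 windows, all but the first of H2-DMa, against 16.1% of all 32851 promoters of the same length. Its first letter lay at position -60 from the start in H2-Eb1, -49 in H2-Aa, -58 in H2-Ob and -44 in H2-Oa. ACNGATG stood in 4 of 7, against 9.85% of all promoters. ACNGATG followed on its strand within 60 bases by GATTGG stood in 2 of 7, H2-DMb1 and H2-Eb1, against 0.158% of all promoters. The letters GCAAC, added after these sequences were read, stood in 5 of 7 against 35.2% of all promoters. GCAAC followed within 60 bases by GATTGG stood in 4 of 7, the printed promoters, against 0.925%. The pair with GCAAC was thus present in members that were higher in tumor libraries (H2-Eb1, H2-Aa) and in members that were lower (H2-Ob, H2-Oa). As GCAAC was chosen from these sequences, its presence in them is no test. The planned pair with ACNGATG stood in H2-DMb1 and H2-Eb1, which were higher there. It was absent from H2-Aa and H2-DMa, which were higher too, and from H2-Ob and H2-Oa, which were lower. A match of letters is a description and not a measured site.

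Library totals ran from 17964262 to 18180959 counts in tumor pTreg, from 18107272 to 18510923 in tumor tTreg and from 14573864 to 17323894 in LN Treg. The Treg label was checked against its markers. The 4 Treg genes (Foxp3, Ikzf2, Il2ra and Ctla4) summed to 257 CPM (counts scaled to the library total) in tumor pTreg, 74.7 CPM in tumor tTreg and 2438 CPM in LN Treg, and 18 pan-T genes such as the CD3 chains summed to 1599 ± 14.6 CPM, 274 ± 4.25 CPM and 6991 ± 73.6 CPM in the same order (SD). Without Lcp2, which myeloid cells express too and which was set aside after its values were seen, the pan-T sums were 1390, 137 and 6604 CPM. The 12 macrophage and monocyte genes, led by Lyz2 and Csf1r, summed to 6158 ± 22.5 CPM in tumor pTreg, 6394 ± 132 CPM in tumor tTreg and 36.4 ± 3.71 CPM in LN Treg, and 12 of 12 were higher in both tumor groups than in LN Treg. The 10 Hepa1-6 or hepatocyte genes summed to 5572 CPM, 8174 CPM and 8.51 CPM, with Apoa2 and Fgb at 0 in LN Treg. Alb made up 2169 CPM of this sum in tumor pTreg and 3112 CPM in tumor tTreg, and Trf 2095 and 3058 CPM. Apoa1, Apoa2, Ttr and Apob averaged at most 0.416 CPM in any group, tumor groups included, and were not tested. The 6 tested genes of this list were all higher in both tumor groups than in LN Treg. The 9 fibroblast and endothelial genes summed to 180.5, 740.4 and 192 CPM, with Col3a1 and Pdgfra at 0 in LN Treg. Pecam1 made up 30.9 CPM of this sum in tumor pTreg, 18.4 CPM in tumor tTreg and 189 CPM in LN Treg. Of these 9 genes, 8 were higher and 1, Pecam1, was lower in each tumor group than in LN Treg. T cell and Treg markers were thus lower, and macrophage and hepatocyte markers higher, in the libraries labelled tumor Treg than in LN Treg. The tumor groups differed in markers as well. In tumor pTreg over tumor tTreg, the pan-T sum was 5.83-fold higher (10.1-fold without Lcp2) and the hepatocyte sum 1.47-fold lower. The fibroblast and endothelial sum was 4.1-fold lower, with 4 of its 9 genes higher and 5 lower. The macrophage and monocyte sum differed by 1.04-fold. Shares of all tested genes called higher or lower are given below with the members. Every difference between groups given here, the tumor groups included, has these marker differences beside it, and their part in the result was not tested. In bulk RNA, fewer cells of a type and less RNA per cell cannot be told apart.

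The 9 genes together took 0.905 ± 0.0164% of all counts in tumor pTreg, 1.06 ± 0.0226% in tumor tTreg and 0.0195 ± 0.0005% in LN Treg (SD, n = 3, 5 and 4). Against LN Treg, 7 of the 9 were higher and 2 were lower in each tumor group, by the edgeR quasi-likelihood test at a Benjamini-Hochberg adjusted p below 0.05. The counts have to be read against backgrounds of 87.5% of all tested genes called for tumor pTreg (47.6% higher and 39.8% lower) and 90.3% for tumor tTreg (48.1% higher and 42.3% lower). The median log2 fold change of the 9 genes was 6.08 in tumor pTreg and 6.26 in tumor tTreg, beside 0.12 and 0.10 over all tested genes. The groups did not overlap for 9 of 9 members in either comparison, as for 85.9% and 85.2% of all tested genes. Between the tumor groups, 1 member was higher in pTreg (H2-Oa), 6 were lower and 2 did not pass, where 52.1% of all tested genes were called (26.8% higher and 25.3% lower). With a fold of at least 2 also asked for, 0 members were called between the tumor groups (6.56% of all tested genes higher and 1.41% lower). The same 7 higher and 2 lower members passed it against LN Treg, where it left 30% higher and 17.7% lower for tumor pTreg and 31% higher and 22.5% lower for tumor tTreg. The median over the members was -0.21 between the tumor groups, beside -0.01 over all tested genes, and the libraries did not overlap for 6 of the 9, as for 48.5% of all tested genes. The 3 comparisons use each group more than once, so their folds are not independent of each other.

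**Figure D1:**
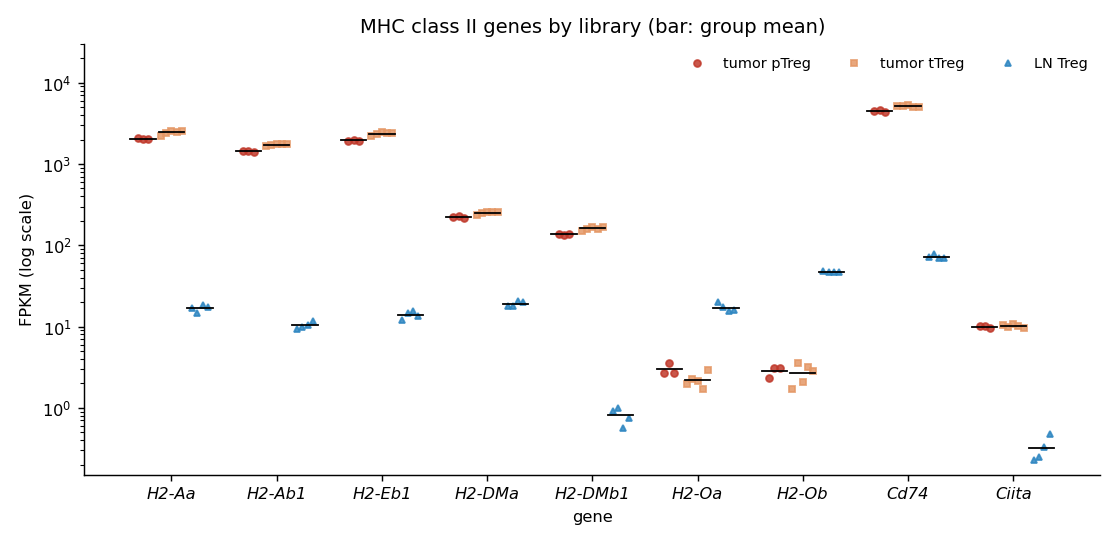
FPKM of the 9 genes on a log axis, 1 point per library for tumor pTreg (n = 3), tumor tTreg (n = 5) and LN Treg (n = 4), with a bar at each group mean. The points of 7 members sit highest in the tumor libraries, and those of H2-Oa and H2-Ob sit highest in LN Treg.

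H2-Aa, H2-Ab1 and H2-Eb1 encode the classical chains that hold the peptide at the cell surface: the alpha and beta chain of I-A and the beta chain of I-E. Levels are given per length as FPKM, that is fragments corrected for transcript length and for library size, so that genes can be compared. H2-Ab1 stood at 1458, 1435 and 1425 FPKM in tumor pTreg, at 1647, 1726, 1783, 1754 and 1765 FPKM in tumor tTreg, and at 9.25, 9.77, 10.4 and 11.8 FPKM in LN Treg. The 3 groups were fully separate, with tTreg above pTreg in every library. H2-Aa stood at 2066, 2059 and 2016 FPKM in tumor pTreg, at 2210.45, 2424.5, 2584, 2501 and 2553 FPKM in tumor tTreg, and at 16.9, 14.6, 18.6 and 17.2 FPKM in LN Treg. The first tumor tTreg library was the lowest of its group and still lay above all 3 pTreg libraries. H2-Eb1 stood at 1940.53, 1988 and 1927 FPKM in tumor pTreg, at 2217, 2334, 2455, 2432 and 2396 FPKM in tumor tTreg, and at 12.1, 14.8, 15.5 and 13.5 FPKM in LN Treg, again without overlap.

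The log2 fold change of tumor pTreg over LN Treg was 7.03 ± 0.0587 for H2-Aa, 7.23 ± 0.0492 for H2-Ab1 and 7.25 ± 0.0561 for H2-Eb1 (SE), which are 130-fold, 150.2-fold and 152-fold. For tumor tTreg over LN Treg it was 7.27 ± 0.0572, 7.49 ± 0.0477 and 7.51 ± 0.0546, in the same order of genes. Adjusted p-values for these 6 folds were at most 7.79e-36 (edgeR). The tumor groups differed less from each other: tumor pTreg lay below tumor tTreg by a log2 fold change of -0.25 ± 0.0396 for H2-Aa (adjusted p = 5.87e-06), -0.25 ± 0.0312 for H2-Ab1 (7.31e-08) and -0.27 ± 0.0366 for H2-Eb1 (5.62e-07). The chains kept nearly the same proportions: the FPKM ratio of H2-Eb1 to H2-Ab1 averaged 1.36 ± 0.0277 in tumor pTreg, 1.36 ± 0.0169 in tumor tTreg and 1.36 ± 0.174 in LN Treg (SD). The ratio of H2-Aa to H2-Ab1 averaged 1.42 ± 0.0115 in tumor pTreg, 1.41 ± 0.0436 in tumor tTreg and 1.64 ± 0.191 in LN Treg, with the LN libraries spread from 1.45 to 1.83. H2-Ea, the alpha chain that pairs with H2-Eb1 to make I-E, had 1 count over the 3 tumor pTreg libraries, 4 over the 5 tumor tTreg libraries and 0 over the 4 LN Treg libraries, where a count of 0 allows up to 3 counts. It was not tested.

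Cd74 was the most abundant of the 9 in each group. It stood at 4519, 4557 and 4371 FPKM in tumor pTreg, at 5133, 5155, 5331, 5073 and 5078 FPKM in tumor tTreg, and at 72.3, 78.8, 69.2 and 69.2 FPKM in LN Treg. The groups were separate here too, with tTreg highest. The log2 fold change over LN Treg was 6.08 ± 0.0431 in tumor pTreg (67.5-fold, edgeR adjusted p = 2.49e-37) and 6.26 ± 0.0422 in tumor tTreg (76.8-fold, 3.65e-38), and that of tumor pTreg over tumor tTreg was -0.19 ± 0.0335 (2.81e-05). The folds of Cd74 over LN Treg were smaller than those of the classical chains. The FPKM ratio of Cd74 to the sum of the 3 chains was 0.824 ± 0.00887 in tumor pTreg, 0.787 ± 0.0361 in tumor tTreg and 1.77 ± 0.215 in LN Treg (SD; no test was made on ratios).

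H2-DMa and H2-DMb1 encode the chains of the peptide editor, and both were higher in tumor libraries, by folds of different size. H2-DMa stood at 225, 227 and 214 FPKM in tumor pTreg, at 236, 252, 260.4, 259 and 258 FPKM in tumor tTreg, and at 17.7, 17.8, 20.7 and 20.3 FPKM in LN Treg. H2-DMb1 stood at 138, 136 and 139 FPKM in tumor pTreg, at 151, 160.3, 168, 159 and 167 FPKM in tumor tTreg, and at 0.92, 0.99, 0.57 and 0.75 FPKM in LN Treg, where it rested on 17, 15, 11 and 14 counts. Both were lowest in LN Treg with no overlap, and H2-DMb1 was by far the lower of the pair there. The log2 fold change of tumor pTreg over LN Treg was 3.54 ± 0.0506 for H2-DMa and 7.54 ± 0.0756 for H2-DMb1, and that of tumor tTreg was 3.71 ± 0.0469 and 7.74 ± 0.0701, with edgeR adjusted p-values of at most 1.71e-30. The FPKM ratio of H2-DMa to H2-DMb1 was 1.61 ± 0.0673 in tumor pTreg, 1.57 ± 0.0329 in tumor tTreg and 25.1 ± 8.42 in LN Treg, with LN libraries from 18.0 to 36.2. Tumor pTreg lay below tumor tTreg by -0.17 ± 0.0355 for H2-DMa (adjusted p = 2.12e-04) and -0.21 ± 0.0317 for H2-DMb1 (3.27e-06).

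H2-DMb2, the near-identical neighbour of H2-DMb1, can share reads with it, so the split between them is uncertain. It had 285 to 334 counts per library in tumor pTreg, 352 to 425 in tumor tTreg and 21 to 30 in LN Treg. It had fewer counts than H2-DMb1 in every tumor library and more in every LN Treg library. With the counts of both summed, an alternative added after the values were seen, the log2 fold change over LN Treg was 6.22 in tumor pTreg and 6.43 in tumor tTreg. The fold between the tumor groups became -0.22. Per length H2-DMb2 averaged 15.7 FPKM in tumor pTreg, 19.4 in tumor tTreg and 1.40 in LN Treg, where H2-DMb1 averaged 0.81. The ratios of H2-DMa to H2-DMb1 and of H2-O to H2-DM leave H2-DMb2 out and were not redone with it. H2-Eb2, a further beta chain gene, had 6 to 16 counts per library in tumor pTreg, 8 to 19 in tumor tTreg and 4 to 11 in LN Treg, and its log2 fold change of 0.86 ± 0.363 in tumor tTreg over LN Treg (edgeR adjusted p = 0.0275) was called, with the other comparisons not called.

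H2-Oa and H2-Ob, the chains of the inhibitor of H2-DM, were the members that fell in the tumor libraries. H2-Ob stood at 2.36, 3.08 and 3.07 FPKM in tumor pTreg, at 1.69, 3.55, 2.1, 3.21 and 2.82 FPKM in tumor tTreg, and at 47.7, 46.4, 46.9 and 47.3 FPKM in LN Treg. The tumor groups overlapped each other, and the 4 LN Treg libraries lay close together far above them. H2-Oa stood at 2.68, 3.56 and 2.69 FPKM in tumor pTreg, at 1.95, 2.25, 2.14, 1.69 and 2.94 FPKM in tumor tTreg, and at 19.9, 17.3, 15.6 and 15.8 FPKM in LN Treg. It too was highest in every LN Treg library. The log2 fold change over LN Treg was -4.07 ± 0.0856 for H2-Ob and -2.43 ± 0.135 for H2-Oa in tumor pTreg, and -3.82 ± 0.0683 and -2.89 ± 0.121 in tumor tTreg (edgeR adjusted p of at most 5.16e-16).

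H2-Oa was higher in tumor pTreg than among the tTreg libraries, with a log2 fold change of 0.46 ± 0.188 and an edgeR adjusted p of 0.0405, on 38, 51 and 38 counts in pTreg and 28, 32, 31, 24 and 41 counts in tTreg. The highest tTreg library overlapped the pTreg group, and the call was kept in 12 of 22 alternatives, with adjusted p from 0.0127 to 0.255. Without the second pTreg library the log2 fold change was 0.31 and the adjusted p was 0.255. H2-Ob did not pass (-0.25 ± 0.131, adjusted p = 0.114). The FPKM ratio of the H2-O chains to the H2-DM chains was 0.0162 ± 0.00223 in tumor pTreg, 0.0117 ± 0.00209 in tumor tTreg and 3.24 ± 0.325 in LN Treg (SD).

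**Figure D2:**
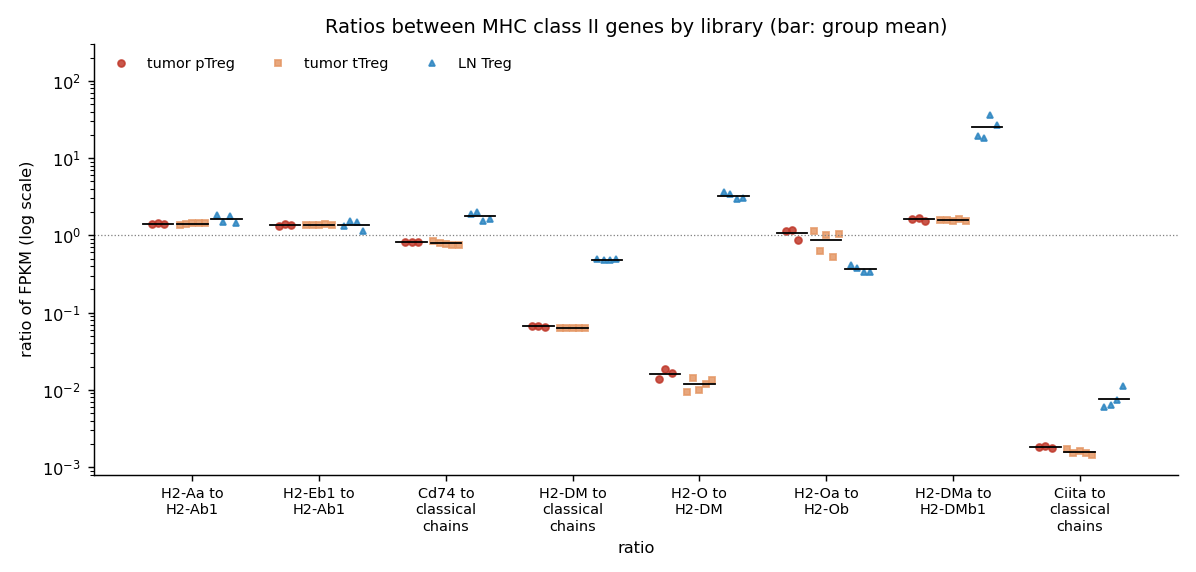
FPKM ratios between members on a log axis, 1 point per library, with a bar at each group mean and a dotted line at a ratio of 1. Classical chains are the sum of H2-Aa, H2-Ab1 and H2-Eb1. H2-DM is the sum of H2-DMa and H2-DMb1, and H2-O that of H2-Oa and H2-Ob. The ratio of H2-O to H2-DM is below 0.02 in the 8 tumor libraries and above 1 in the 4 LN Treg libraries, and H2-Eb1 to H2-Ab1 is alike in all 3 groups.

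Ciita, the coactivator, lay far below the 3 classical chains in every group. It stood at 10.1, 10.2 and 9.51 FPKM in tumor pTreg, at 10.4, 9.82, 10.9, 10.3 and 9.59 FPKM in tumor tTreg, and at 0.23, 0.25, 0.33 and 0.47 FPKM in LN Treg, on 18, 18, 25 and 39 counts. The tumor groups overlapped and the LN Treg libraries lay far below them, the fourth of them highest. The log2 fold change over LN Treg was 5.14 ± 0.105 in tumor pTreg (35.4-fold, edgeR adjusted p = 1.08e-26) and 5.15 ± 0.0984 in tumor tTreg (35.5-fold, 1.2e-27). The fold of tumor pTreg over tumor tTreg was -0.01 ± 0.053 (adjusted p = 0.937). It did not pass the test. Per FPKM of classical chains Ciita was 0.00182 in tumor pTreg, 0.00156 in tumor tTreg and 0.00772 in LN Treg.

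**Figure D3:**
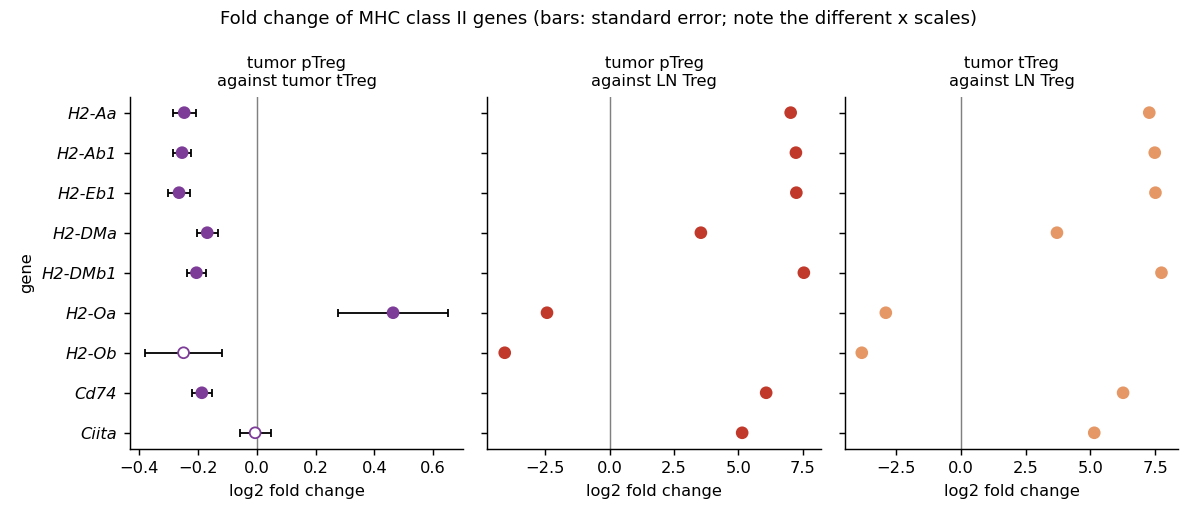
Log2 fold change of each member in the 3 comparisons, with bars for the standard error (hidden by the points where short), filled points for genes called at an adjusted p below 0.05 and open points for those not called; the x axes differ in scale. H2-Oa is the member right of 0 and called in the tumor comparison, and H2-Oa and H2-Ob are left of 0 against LN Treg.

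Ranked by FPKM, tumor pTreg had Cd74, H2-Aa, H2-Eb1, H2-Ab1, H2-DMa, H2-DMb1, Ciita, H2-Oa and H2-Ob, with H2-Oa and H2-Ob overlapping. Tumor tTreg had the same order down to Ciita, with H2-Aa and H2-Eb1 overlapping, and H2-Ob then stood above H2-Oa, also overlapping. LN Treg had Cd74 and then H2-Ob above the rest. H2-DMa, H2-Oa, H2-Aa and H2-Eb1 followed there, each overlapping its neighbour in range, and H2-Ab1, H2-DMb1 and Ciita were last and separate from one another.

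Markers of the cells that usually make class II were read beside the members. The 11 dendritic cell genes summed to 352 CPM in tumor pTreg, 377 CPM in tumor tTreg and 267 CPM in LN Treg. Without Ccr7, which T cells carry too and which was set aside after its values were seen, they summed to 339, 368 and 14.7 CPM in the same order. Itgax alone made up 266 CPM of this sum in tumor pTreg, 296 CPM in tumor tTreg and 1.16 CPM in LN Treg. Of the 11 dendritic cell genes, 6 were higher, 3 were lower and 2 did not pass in tumor pTreg over LN Treg. In tumor tTreg over LN Treg, 7 were higher, 2 were lower and 2 did not pass. The 10 B cell genes summed to 43.0, 39.3 and 19.5 CPM, of which Cd22 made up 38.7 CPM in tumor pTreg, 34.9 CPM in tumor tTreg and 4.61 CPM in LN Treg. The sum of the whole list was thus lowest in LN Treg. Without Cd22, set aside after its values were seen because it made up most of the sum in tumor libraries, the B cell sum was 4.34 ± 0.545, 4.47 ± 0.474 and 14.9 ± 1.06 CPM, highest in LN Treg. Of 8 tested B cell genes, 1 was higher (Cd22), 5 were lower and 2 did not pass in tumor pTreg over LN Treg, and 2 were higher (Cd22 and Ebf1), 5 were lower and 1 did not pass in tumor tTreg. Over all tested genes, 47.6% were higher and 39.8% lower in tumor pTreg, and 48.1% and 42.3% in tumor tTreg. Ms4a1 and Cd79a averaged 1.18 and 1.63 CPM in LN Treg. Per 100 counts of B cell markers without Cd22, H2-Ob had 80.1 counts in tumor pTreg, 93.2 in tumor tTreg and 420 in LN Treg. H2-Oa had 53.8, 38.7 and 91.6 in the same order, a smaller difference between tumor and LN Treg libraries. In tumor pTreg, Cd79b made up 2.97 of the 4.34 CPM of these markers. The part of B cells in the H2-O levels was not tested.

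Scaled to the macrophage and monocyte counts, H2-Ab1 had 19.98 counts per 100 in tumor pTreg, 23.1 in tumor tTreg and 24.3 in LN Treg, and Cd74 had 68.1, 75.1 and 185. H2-DMa had 2.91, 3.17 and 45.4 on the same scale. In LN Treg, Lyz2 alone made up 25.7 of the 36.4 CPM of the macrophage and monocyte sum. Its log2 fold change in tumor pTreg over LN Treg, 5.81, was the lowest of this list, whose highest was 11.3. Values on this scale in LN Treg thus rest mainly on Lyz2, and a sum without it was not used. This scaling lowers the fold of every gene alike, so that a gene turns wherever its fold is below that of the macrophage and monocyte sum, which was 169-fold in tumor pTreg and 175-fold in tumor tTreg over LN Treg. On it the log2 fold change of tumor pTreg over LN Treg was -0.28 for H2-Ab1, -0.48 for H2-Aa, -0.26 for H2-Eb1, -1.44 for Cd74, -2.35 for Ciita and -3.96 for H2-DMa. H2-DMb1 kept its sign and did not pass the test in either tumor group. For all tested genes this scaling gave 468 higher and 14148 lower genes in tumor pTreg and 535 higher and 14111 lower genes in tumor tTreg, with medians of -7.39 and -7.45. Scaled instead to pan-T counts, H2-Oa and H2-Ob turned to log2 fold changes of 1.68 and 0.75 in tumor tTreg over LN Treg and kept their sign in tumor pTreg (-0.41 and -2.04), where the median over all genes was 4.67 in tTreg and 2.14 in pTreg. The macrophage and monocyte scaling also gave, in tumor tTreg over LN Treg, -0.07 for H2-Ab1 and -0.04 for H2-Eb1.

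**Figure D4:**
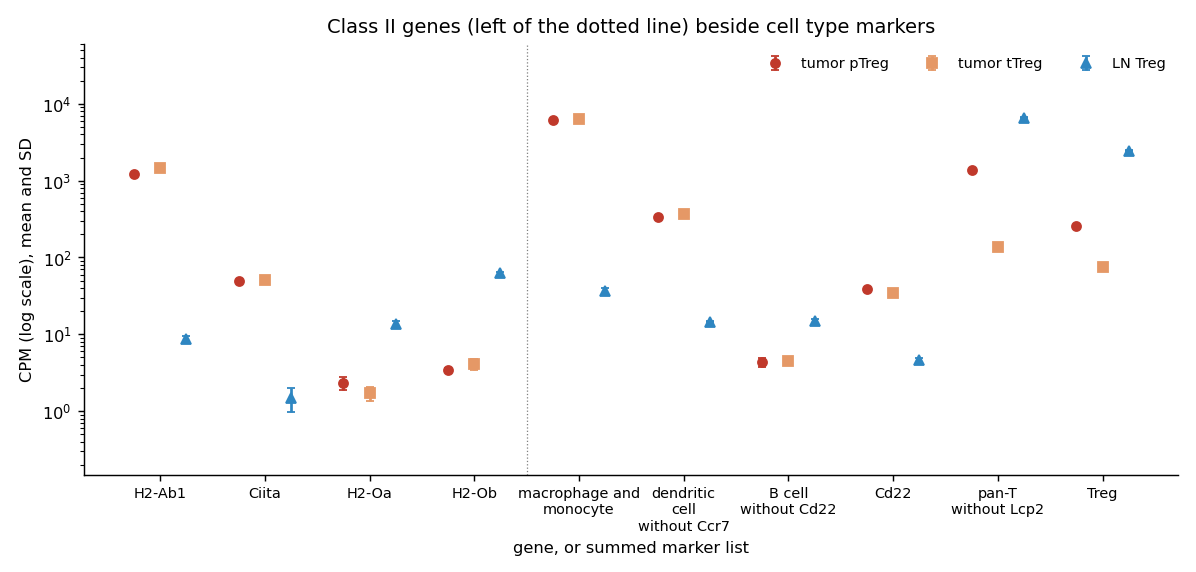
Mean CPM (bars: SD) on a log axis for 4 members, left of the dotted line, and for Cd22 and summed marker lists in tumor pTreg (n = 3), tumor tTreg (n = 5) and LN Treg (n = 4). H2-Ab1 and Ciita are higher in tumor libraries, as are the macrophage and monocyte sum and the dendritic cell sum without Ccr7, while H2-Oa, H2-Ob, the B cell sum without Cd22, the pan-T sum without Lcp2 and the Treg sum are highest in LN Treg.

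The factors that hold the X and Y boxes were mostly lower in tumor libraries than in LN Treg. Of 7 promoter factors, 0 were higher and 6 were lower in tumor pTreg than in LN Treg, and 7 of 7 were lower in tumor tTreg, with medians of -0.83 and -1.06. Counts for this list and the lists after it have to be read against all tested genes. Of these, 47.6% were higher and 39.8% lower in tumor pTreg over LN Treg, and 48.1% and 42.3% in tumor tTreg. In tumor pTreg over tumor tTreg, 26.8% were higher and 25.3% lower. The lists were not tested against these shares. Rfx5, a DNA-binding subunit of the RFX complex, averaged 20.5 ± 0.516 CPM in tumor pTreg, 20.5 ± 1.43 CPM in tumor tTreg and 61.0 ± 2.08 CPM in LN Treg. Its log2 fold change over LN Treg was -1.47 in tumor pTreg and -1.48 in tumor tTreg. Creb1, a factor of the X2 box, differed by -1.41 and -1.67, and Nfyb, a subunit of NF-Y, by -0.83 and -1.06. The edgeR adjusted p-values of these 6 folds were at most 8.79e-17. In tumor pTreg over tumor tTreg, 3 of the 7 were higher and 4 did not pass, with Creb1 at 0.26 ± 0.0393 and Nfyb at 0.23 ± 0.0449.

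Genes that feed or restrain Ciita were mixed. Of 12, 4 were higher and 7 lower in tumor pTreg than in LN Treg, and 4 higher and 8 lower in tumor tTreg. Spi1, the myeloid factor PU.1 that acts on the Ciita promoter of myeloid cells, averaged 84.6 ± 1.41 CPM in tumor pTreg, 96.6 ± 0.667 CPM in tumor tTreg and 1.05 ± 0.178 CPM in LN Treg, log2 fold changes of 6.43 and 6.62. Jak1, a kinase of the interferon-gamma receptor, whose signal induces Ciita, was lower in tumor libraries, by -1.57 in tumor pTreg and by -2.25 in tumor tTreg. Between the tumor groups 9 of the 12 were higher in pTreg, 1 was lower (Spi1, -0.19 ± 0.0319, edgeR adjusted p = 1.72e-05) and 2 did not pass. Jak1 averaged 299 CPM in tumor pTreg and 188 CPM in tumor tTreg (log2 fold change 0.68 ± 0.0292).

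Of 9 genes of endosomal processing, 8 were higher and 1 was lower in each tumor group than in LN Treg, with medians of 3.46 and 3.47. Ctsh, a lysosomal cysteine protease, averaged 577 ± 4.37 CPM in tumor pTreg, 707 ± 18.8 CPM in tumor tTreg and 2.55 ± 0.468 CPM in LN Treg, log2 fold changes of 7.92 and 8.20. Ctsl, a protease that trims the invariant chain, differed by 5.67 and 5.97, and Lgmn, an asparagine-specific endopeptidase, by 5.71 and 5.75. Ctse, an aspartic protease chosen for mention after its value was seen because it alone of the 9 was lower, differed by -1.66 and -4.12. Set against tTreg, 2 of the 9 were higher in tumor pTreg, 3 were lower and 4 did not pass. Ctse had the largest of these folds, 2.46 ± 0.0514, with 44.7 CPM in tumor pTreg and 8.17 CPM in tumor tTreg (edgeR adjusted p = 3.2e-25), while Ctsh was at -0.28 ± 0.0312 and Ctsl at -0.30 ± 0.0317.

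The 3 genes of class II turnover were higher in both tumor groups than in LN Treg. Marchf8 and Marchf1 encode ubiquitin ligases that remove class II and Cd86 from the surface, and Cd83 opposes Marchf1. Marchf8 differed from LN Treg by 6.00 in tumor pTreg and 6.29 in tumor tTreg, Marchf1 by 5.08 and 4.77, and Cd83 by 2.68 and 2.84. Marchf1 was higher in tumor pTreg than in tumor tTreg (0.30 ± 0.0569, 29.2 against 23.8 CPM, edgeR adjusted p = 5.86e-05), whereas Marchf8 was lower (-0.29 ± 0.0431, 57.2 against 70.3 CPM, 1.97e-06). The co-stimulatory genes Cd80, Cd86 and Cd40, which presenting cells show beside class II, were likewise higher in tumor libraries, by 3.57, 1.499 and 4.402 in tumor pTreg and by 3.88, 1.83 and 4.65 in tumor tTreg. All 3 had lower values in tumor pTreg, with log2 fold changes over tumor tTreg of -0.30, -0.33 and -0.25.

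Among 4 binding partners of class II and Cd74, Cd4, the coreceptor of class II, averaged 326 ± 4.69 CPM in tumor pTreg, 92.4 ± 4.09 CPM in tumor tTreg and 651 ± 12.8 CPM in LN Treg. Lag3, an inhibitory class II receptor, averaged 42.6 ± 1.47 CPM, 19.0 ± 1.4 CPM and 10.5 ± 0.544 CPM in the same order, and its log2 fold change was 2.13 in tumor pTreg and 0.97 in tumor tTreg over LN Treg. Between the tumor groups Cd4 was higher in pTreg by 1.82 ± 0.0319 and Lag3 by 1.17 ± 0.0536, beside 18 of 18 pan-T genes higher there, with a median log2 fold change of 3.44. Cd44, which signals with Cd74, averaged 516 CPM in tumor pTreg, 503 CPM in tumor tTreg and 177 CPM in LN Treg and did not pass between the tumor groups (edgeR adjusted p = 0.178).

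**Figure D5:**
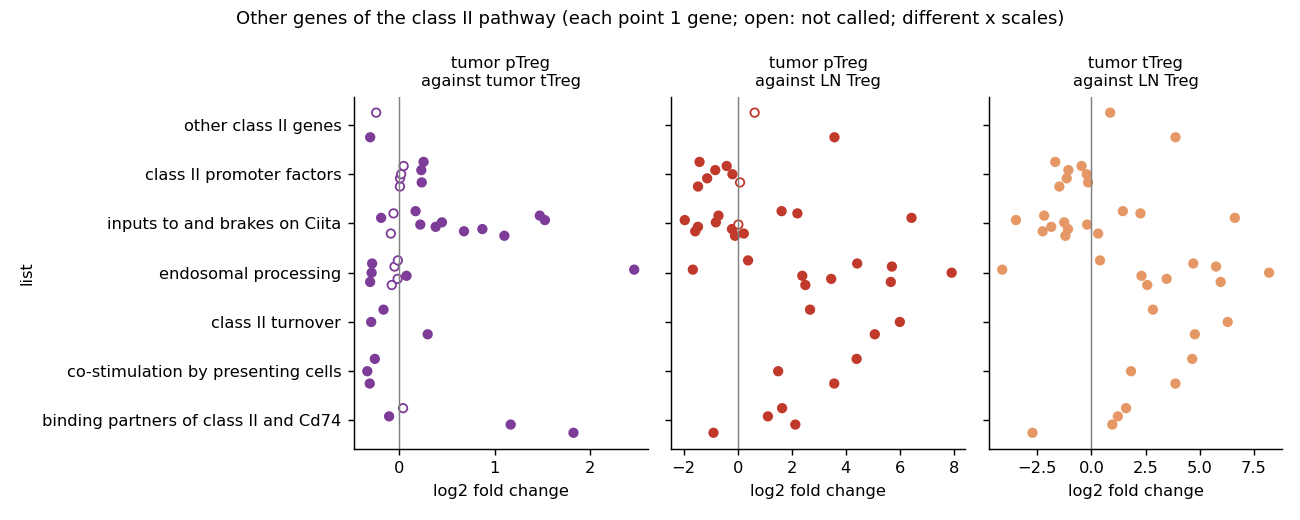
Log2 fold change of the other genes of the class II pathway, 1 point per tested gene, arranged by list in the 3 comparisons; open points are genes not called and the x axes differ in scale. Against LN Treg, 6 of the 7 promoter factors in tumor pTreg and 7 of 7 in tumor tTreg are called and lie left of 0, while turnover and co-stimulation genes lie right of it.

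By the root mean square difference of centred log2 CPM over the 12 libraries, the genes outside the 9 members most like H2-Ab1, among 9292 candidates, were Dock1 (0.0755), Papss2 (0.0962), Zfhx3 (0.101), Sowahb (0.101) and Foxa2 (0.108), where, of the members left out of this ranking, H2-Eb1 was at 0.0939, H2-Aa at 0.116 and H2-DMb1 at 0.198. The values carry mainly the contrast between tumor and LN libraries, which all 12 points share. Those most like H2-Ob among 12225 candidates were Mgst2 (0.202), Igf1r (0.209), Pik3ip1 (0.213), Tmie (0.220) and Rragd (0.277), with H2-Oa farther away at 0.665. Among those most like Ciita were Arl11 (0.164), Gdpd1 (0.168), Lyve1 (0.174) and Ptafr (0.178), of which Lyve1 is a receptor of lymphatic endothelium and some macrophages. H2-Ab1 and H2-Ob lay 5.31 apart on the same scale.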

How the data were processed

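Reads came from BGISEQ-500 sequencing of total RNA. Per the submitters' processing notes the authors used STAR 2.7.11a for alignment, RSEM 1.3.3 for quantification and also DESeq2, on the build GRCm38 (mm10). The authors deposited a table of expected counts and a table of FPKM for the same 12 libraries. The counts held whole numbers and were taken as RSEM expected counts from the processing notes. Their gene annotation is not given in the sources used.

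Expected counts were rounded to whole numbers. With R 4.3.3, filterByExpr left 15705 of 27279 genes with any count, and edgeR 4.0.16 (TMM factors, group factor over all 12 libraries, quasi-likelihood F test) was fitted to all of them. P-values were adjusted by Benjamini-Hochberg within a comparison, with calls below 0.05. SE is the fold change divided by the square root of F. CPM values use deposited totals, and FPKM served for levels and ratios. The test was checked on simulated data in which few genes changed. Most tested genes were called here, a setting that this check does not cover. The members, the 41 pathway genes (40 tested) and the marker lists were chosen with earlier results of these data known. Named pathway genes are up to 3 of each list with the smallest p over the comparisons, plus H2-DMb2 and H2-Ea. Genes most like H2-Ab1 (mean of at least 10 CPM), H2-Ob and Ciita (at least 1 CPM) had the smallest root mean square difference. Some genes that these rules name are not reported here.

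Replicate libraries differed beyond sampling noise (chi-square per degree of freedom from 1.65 to 3.97 over 19 pairs), so none was merged. DESeq2 1.42.0 and limma 3.58.1 served for alternatives. No column was left unused.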

Additional observations from a re-analysis of the deposited data

Results flagged for a closer look

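The second LN Treg library held 14.6 M counts (14573864), below the 16996928 to 17323894 of the other LN Treg libraries. Its gap to the nearest of them was 0.881 of the range of the group of 4. Chance flags about 1 in 20 groups, and 36 groups of values were looked at. Its levels of the 9 genes did not stand apart by the same measure.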

How the results depend on the processing

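Alternatives were RLE factors, library totals, 2 filters on low counts, DESeq2, limma on log2 of FPKM + 1 or + 0.1, fits of the 2 compared groups, a fold threshold, a replicate block, each library left out, and scaling to marker counts. The folds over LN Treg kept direction and call for all 9 members in all alternatives but the marker scalings. Between the tumor groups H2-Aa, H2-Ab1, H2-Eb1, H2-DMa and Cd74 kept both in all alternatives but the fold threshold and the marker scalings, and H2-DMb1 lost its call, beside these, with FPKM + 0.1. A log2 threshold of 1 left 1253 genes called in tumor pTreg against tumor tTreg, with 0 members, 7497 in tumor pTreg against LN Treg and 8403 in tumor tTreg against LN Treg. Leaving out libraries gave 7151 to 8206, 13506 to 13727 and 13971 to 14425 genes called in the same order, and 6 to 7 members between the tumor groups.

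Some signs turned, and the cause was not tested beyond the marker scalings, which shift every gene alike. Between the tumor groups, Rfx5 was -0.0331 with RLE factors and -0.0325 with DESeq2, and ranged from -0.0169 (without tumor tTreg library 3) to 0.0366 with libraries left out. Cd44 was -0.000313 with RLE factors. H2-Ob was 0.0834 on log2(FPKM + 1), with or without the filter, and 0.12 on log2(FPKM + 0.1). With libraries left out, H2-Eb2 ranged from -0.64 to 0.0463 (without tumor pTreg library 2) and Ciita from -0.0373 to 0.0214. Ciita was 0.0405 with macrophage scaling. Scaled to pan-T counts, H2-Oa was -2.08 in tumor pTreg against tumor tTreg, where 218 genes were higher and 14988 lower with a median of -2.56, and 1.68 in tumor tTreg against LN Treg, with H2-Ob at 0.75. Scaled to macrophage counts, tumor pTreg over LN Treg was -0.48 for H2-Aa, -0.28 for H2-Ab1, -0.26 for H2-Eb1, -3.96 for H2-DMa, -1.44 for Cd74 and -2.35 for Ciita, and tumor tTreg was -0.28, -0.0696, -0.0393, -3.84, -1.30 and -2.40.

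With the replicate number as a block, 3932 genes were higher and 3563 lower in tumor pTreg against tumor tTreg, with 1 member higher and 6 lower. Libraries with the same number did not deviate together (r from -0.0496 to 0.0526 over 10 pairs, against -0.159 to 0.235 over 37 other pairs), so the numbers were not taken as pairs. Depth limits H2-Oa and H2-Ob in tumor libraries, H2-DMb1 and Ciita in LN Treg, and H2-Eb2, which rest on under 100 counts per library. The same holds in LN Treg for the pathway genes H2-DMb2, Spi1, Ctsh, Marchf8, Marchf1, Cd80 and Cd40, so their folds over LN Treg share this limit.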
